A study of Mus musculus with 4 samples.

Results

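Globin genes and 3 other red cell genes were followed in messenger RNA sequencing of mouse embryonic stem cell (ESC) cultures that had been differentiated towards cardiomyocytes. The 10 genes were taken by name from a table of 24637 genes: the embryonic globins Hba-x, Hbb-y and Hbb-bh1, the adult globins Hba-a1, Hba-a2, Hbb-b1 and Hbb-b2, the heme synthesis gene Alas2, and the membrane genes Slc4a1 and Epb4.2. There were 4 libraries, 2 labelled WT (Taf4+/+) and 2 labelled Taf4a-/-, the genotype in which the gene for the TFIID subunit Taf4 is inactivated. The study describes 2 ESC lines of each genotype, derived from blastocysts of heterozygous crosses and grown on embryonic fibroblast feeders. All 4 cultures spent 5 days as embryoid bodies in medium with serum and 9 days on gelatin. The labels give replicate numbers and no line names, so which line each library came from is not known here. The p-values from limma rest on the spread between the libraries of a genotype, drawn towards that of other genes of similar level. Genes that vary more than those get smaller p-values than their own spread alone would give.

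Globins are the oxygen carriers of red cells, assembled from alpha-like and beta-like chains that each bind a heme group. The first red cells of the mouse embryo arise in the yolk sac from mesoderm that also gives rise to endothelium, and they make embryonic chains first and adult chains as they mature. ESCs that differentiate as embryoid bodies in serum can form such primitive red cells beside other mesodermal derivatives.

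Hba-x encodes the embryonic zeta chain and Hbb-y and Hbb-bh1 the embryonic beta-like chains, and Hba-a1, Hba-a2, Hbb-b1 and Hbb-b2 encode adult chains. The alpha-like genes lie on chromosome 11 of NCBIM37 (mm9) on the plus strand, Hba-x at 32176400 to 32178116, Hba-a1 at 32183511 to 32184465 and Hba-a2 at 32196489 to 32197301. The beta-like genes lie on chromosome 7 on the minus strand, Hbb-b2 at 110961038 to 110962510, Hbb-b1 at 110975048 to 110976610, Hbb-bh1 at 110990150 to 110991678 and Hbb-y at 111000259 to 111001754. All 10 are annotated as protein coding. The coding sequences of Hba-a1 and Hba-a2 differ at 1 of 429 bases and those of Hbb-b1 and Hbb-b2 at 1 of 444, whereas Hbb-y and Hbb-bh1 are identical at 76.4% of 444 bases. Of all 50-base windows of the longest transcript, 32.5% of those of Hba-a1, 13.1% of Hba-a2, 47.7% of Hbb-b1 and 41.7% of Hbb-b2 occur in no other transcript. Reads outside these windows cannot be assigned to 1 gene of an adult pair, so values of the single adult genes are uncertain, while the windows of Hba-x, Hbb-y and Hbb-bh1 were all unique.

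The promoters are shown, as these genes moved together between the libraries, for the 120 bases before the transcript start given by RefSeq (GRCm38.p6). That of Hba-a2 is left out because it is nearly that of Hba-a1. Motif letters of the search are in capitals, on either strand. They are AGATAA for the Gata factors, where the first base may also be T and the last also G, and CCACCC for Klf factors such as Klf1. The others are the GC box letters CCGCCC, the CCAAT box, and the TATA box letters TATAAA, where the first base may also be C. Letters such as those in capitals in Alas2 are matches on the other strand, and there the neighbouring Klf and GC box matches overlap one another. RefSeq names the adult beta-like genes of the reference strain Hbb-bs and Hbb-bt, and by exact match to NCBIM37 their promoters lie at the genes listed as Hbb-b1 and Hbb-b2. The annotation of NCBIM37 also holds transcripts that begin further upstream for some of these genes.
Hba-x, chr11:32176480-32176599, plus strand: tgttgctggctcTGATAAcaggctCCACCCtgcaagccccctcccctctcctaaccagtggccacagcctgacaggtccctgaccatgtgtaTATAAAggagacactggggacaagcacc
Hba-a1, chr11:32183552-32183671, plus strand: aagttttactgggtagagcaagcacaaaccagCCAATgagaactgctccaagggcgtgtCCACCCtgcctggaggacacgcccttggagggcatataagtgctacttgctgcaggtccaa
Hbb-y, chr7:111001722-111001841, minus strand: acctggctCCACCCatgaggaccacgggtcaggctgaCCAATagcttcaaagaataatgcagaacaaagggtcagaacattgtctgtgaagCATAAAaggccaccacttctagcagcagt
Hbb-b1 (Hbb-bs), chr7:110976443-110976562, minus strand: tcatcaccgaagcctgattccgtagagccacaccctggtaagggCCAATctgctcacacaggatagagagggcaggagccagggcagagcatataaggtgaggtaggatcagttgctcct
Hbb-b2 (Hbb-bt), chr7:110962438-110962557, minus strand: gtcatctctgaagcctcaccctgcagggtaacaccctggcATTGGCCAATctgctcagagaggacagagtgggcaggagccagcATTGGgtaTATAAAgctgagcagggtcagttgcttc
Alas2, chrX:146981840-146981959, plus strand: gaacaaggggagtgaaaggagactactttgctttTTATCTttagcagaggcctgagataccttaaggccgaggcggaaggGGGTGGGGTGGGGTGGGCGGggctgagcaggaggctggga
Epb4.2 (Epb42), chr2:120862614-120862733, minus strand: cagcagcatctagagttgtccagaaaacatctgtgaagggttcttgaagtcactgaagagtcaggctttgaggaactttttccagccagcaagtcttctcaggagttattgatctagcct

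Epb4.2 had no match in the stretch shown. The whole promoters in the RefSeq table, 250 bases before and 50 after the start, were available for 8 of the 10 genes, and Hbb-bh1 and Slc4a1 had none there. Gata letters were found in 7 of the 8, all except Hbb-b2, against 29.8% of the 32851 promoters of the table. CCACCC was found in 6 of the 8, against 31.5%, CCAAT in 5 of the 8, against 37.4%, and the TATA box letters in 5 of the 8, against 22.8%. In Alas2 and Epb4.2 the TATA box letters lay on the other strand, at bases -209 to -204 and -126 to -121 from the start. The stretches shown of Hba-a1 and Hbb-b1 hold catataag, which the search letters do not match. CCGCCC was found in 1 of the 8, Alas2, against 35.7%. The promoters of Hba-a1 and Hba-a2 share a run of 297 bases, and the Hba-a1 promoter matched NCBIM37 at both genes, so that nearly the same sequence is counted for each of them; the longest run shared by Hbb-b1 and Hbb-b2 was 14 bases. In Hba-x a match to the Gata, Klf and TATA box letters each lay within the stretch shown and another Gata match lay further upstream, whereas in Hba-a1, Hbb-y, Hbb-b1 and Epb4.2 the Gata matches all lay further upstream. These matches are letters only, and no binding was measured here.

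In the whole table, between 21732746 and 27733034 reads per library were assigned to genes. The values are counts divided by 1 size factor per library, and 1 read was worth between 0.877 and 1.11 normalized counts. Where 4 values are given below, they stand in the order WT replicates 1 and 2, then replicates 1 and 2 of the libraries labelled Taf4a-/-. Taf4a itself (ENSMUSG00000039117) had 889 and 678 normalized counts in WT against 1722 and 1799 under the Taf4a-/- label, a log2 fold change of 1.18 (SE 0.16, adjusted p = 0.00569 from limma). Its count thus goes against the label, and since it covers the whole gene it does not show whether the inactivated part was transcribed. All 10 cardiomyocyte markers were lower in the Taf4a-/- labelled libraries, at a summed 3464 and 3292 normalized counts against 31810 and 28469 in WT. The 10 genes had between 4 reads, for Hbb-b2 in Taf4a-/- labelled replicate 1, and 5040 reads, for Hbb-y in replicate 2.

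The 3 embryonic globins made up most of the globin reads in every library, and the levels of the genotypes overlapped for all 3. Hba-x had 1263 and 328 normalized counts in WT against 719 and 4504 under the Taf4a-/- label. Hbb-y had 1827 and 882 in WT against 769 and 5574 under the Taf4a-/- label. Hbb-bh1 had 1457 and 650.4 in WT against 927 and 5279 under the Taf4a-/- label. For each of the 3 genes, Taf4a-/- labelled replicate 2 was highest and WT replicate 1 came next. The reads of all 7 globins together came to 0.0205% and 0.00818% of all gene reads in WT against 0.0105% and 0.0656% under the Taf4a-/- label. Embryonic globins were 91.2% and 89.2% of these reads in WT, and 96.9% and 97.3% in the Taf4a-/- labelled libraries. In bulk RNA, fewer red cells and less globin RNA per red cell cannot be told apart.

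Per kilobase of exon, Hbb-y and Hbb-bh1 were the most abundant of the 10 genes, with means over the 4 libraries of 3424 and 3385 normalized counts per kilobase. Their order was not the same in all libraries, with Hbb-y above Hbb-bh1 in both WT libraries and below it in both libraries labelled Taf4a-/-. Hba-x followed with a mean of 1816 per kilobase and Hba-a1 with 231, and each was below the gene before it in all 4 libraries as counted. Alas2 (68.6 per kilobase) and Hba-a2 (55.8) changed places in WT replicate 2. Hbb-b2 and Hbb-b1 had means of 41.0 and 40.8 per kilobase and did not keep their order either. Slc4a1 had 17.0 and Epb4.2, the least abundant, 4.18 normalized counts per kilobase.

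The adult alpha-like genes, whose chains join the adult beta-like chains in adult hemoglobin, had fewer counts than Hba-x in every library. Hba-a1 had 217 and 154 normalized counts in WT against 59.7 and 321 under the Taf4a-/- label. Hba-a2 had 37.7 and 31.2 in WT against 8.81 and 71.9 under the Taf4a-/- label. Both genes were highest in Taf4a-/- labelled replicate 2 and lowest in replicate 1, and the WT libraries lay between them. If only reads from windows found in no other transcript had been counted, Hba-a1 scaled to those windows would be 474 in WT replicate 2 and above Hba-x there.

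The adult beta-like genes had few reads and another order of libraries. Hbb-b1 had 103 and 13.5 normalized counts in WT against 4.89 and 19.9 under the Taf4a-/- label. Hbb-b2 had 78.9 and 27.0 in WT, from 90 and 26 reads, and 3.92 and 5.53 in the Taf4a-/- labelled libraries, from 4 and 5 reads. Hbb-b1 overlapped between the genotypes, and Hbb-b2 was the only one of the 10 genes whose genotypes did not overlap, whereas 36.6% of all genes tested lay lower in both libraries labelled Taf4a-/- than in both WT libraries and 34.5% lay higher.

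Alas2 encodes the red cell form of the enzyme that starts heme synthesis. It had 173 and 69.6 normalized counts in WT against 76.4 and 341 under the Taf4a-/- label. Its transcripts overlap Apex2 on the other strand of chromosome X (146981918 to 147005181), and the library kit does not mark strand. The order of the libraries for Alas2 was that of Hba-x. Slc4a1, which encodes the anion exchanger band 3 (chromosome 11, 102210138 to 102227517, minus strand), had 199.9 and 19.7 in WT against 24.5 and 88.5 under the Taf4a-/- label. Epb4.2 encodes protein 4.2, which ties band 3 to the membrane skeleton (chromosome 2, 120843627 to 120862808, minus strand), and it had 33.3 and 10.4 in WT against 4.89 and 42.03 under the Taf4a-/- label. Slc4a1 was highest in WT replicate 1 and Epb4.2 in Taf4a-/- labelled replicate 2.

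**Figure D1:**
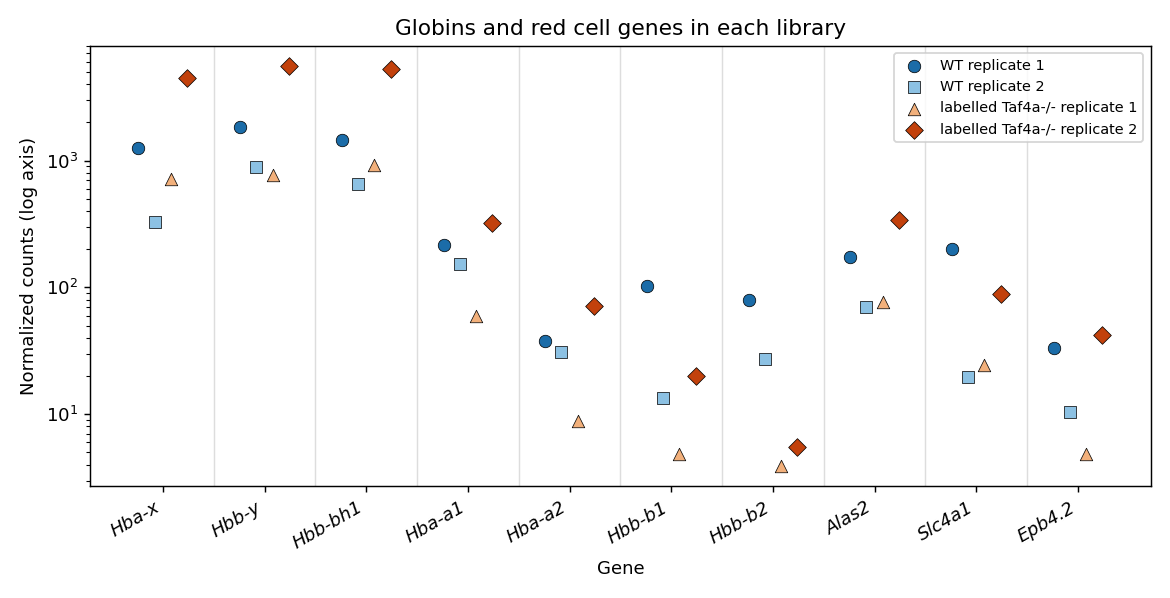
Normalized counts (log axis) of each of the 10 genes in the 4 single libraries, 2 labelled WT and 2 labelled Taf4a-/-; each point is 1 library. The library labelled Taf4a-/- replicate 2 is highest for 7 genes and WT replicate 1 for the other 3, Hbb-b1, Hbb-b2 and Slc4a1.

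Between libraries of the same genotype, the 10 genes moved together. All 10 were higher in WT replicate 1 than in WT replicate 2, and all 10 were higher in Taf4a-/- labelled replicate 2 than in replicate 1. In the Taf4a-/- labelled libraries, 9 of the 10 genes were at least 2-fold higher in replicate 2, against 3.44% of the 16926 genes tested, the exception being Hbb-b2 (1.41-fold). The folds of the other genes ran from 3.62 for Slc4a1 to 8.59 for Epb4.2, with 7.24 for Hbb-y, 6.27 for Hba-x and 5.69 for Hbb-bh1. Between the WT libraries, 8 of the 10 genes were at least 2-fold higher in replicate 1, against 4.3% of all genes tested, the exceptions being Hba-a1 (1.41-fold) and Hba-a2 (1.21-fold). Here the largest folds were 10.1 for Slc4a1 and 7.59 for Hbb-b1, and the embryonic globins had 3.85 (Hba-x), 2.24 (Hbb-bh1) and 2.07 (Hbb-y). At least 2-fold in both comparisons were 7 of the 10 genes, against 0.544% of all genes tested.

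On the log2(normalized count + 1) scale, the median absolute difference between the Taf4a-/- labelled libraries was 2.46 for the 10 genes and 0.16 for all genes tested. Between the WT libraries it was 1.41 for the 10 genes and 0.26 for all genes tested. These are differences between single libraries, so they have no replicate check. The labels do not say whether the replicate numbers tie a WT library to a library labelled Taf4a-/-. For 7 of the 10 genes Taf4a-/- labelled replicate 2 was highest and WT replicate 1 was next, an order seen in 3.83% of all genes tested.

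**Figure D2:**
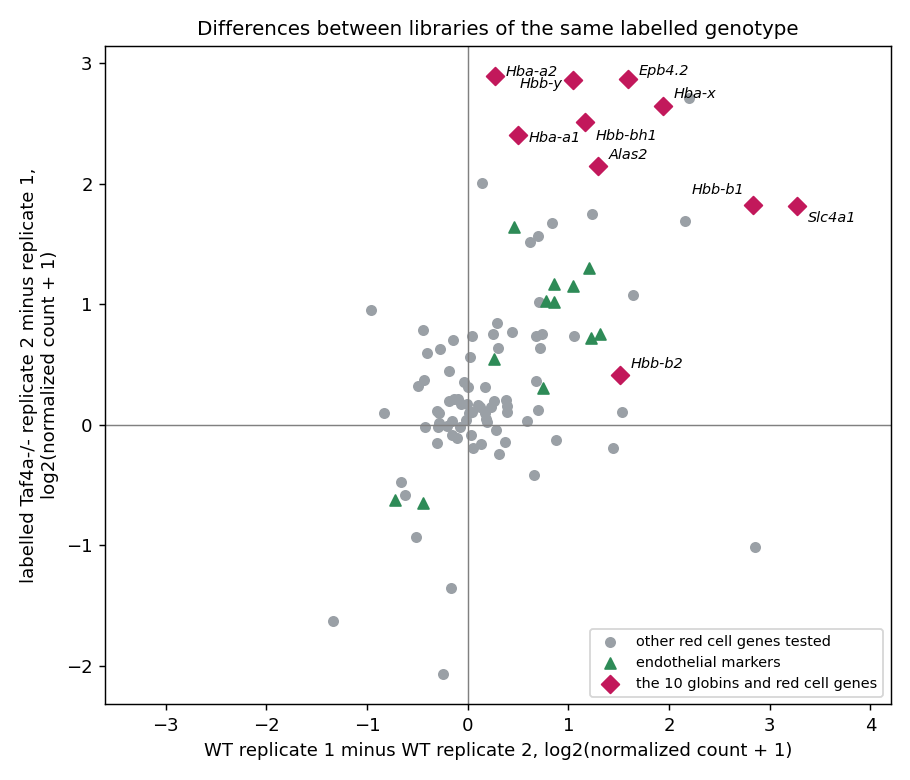
Difference between the Taf4a-/- labelled libraries (replicate 2 minus replicate 1, vertical axis) against that between the WT libraries (replicate 1 minus replicate 2, horizontal axis), both on the log2(normalized count + 1) scale; each point is 1 gene. The 10 globins and red cell genes (diamonds) are above 0 on both axes, and most of the other red cell genes tested (grey) are near 0 on both.

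The share of adult chains among the globin reads did not overlap between the genotypes as labelled, whereas the levels of 9 of the 10 genes did. By level, 36.6% of all genes tested lay lower in both libraries labelled Taf4a-/- than in both WT libraries, and 34.5% lay higher. For shares no such figure over all genes is given here. Of the beta-like globin reads, 5.24% (95% Wilson interval 4.58% to 5.98%) were from Hbb-b1 or Hbb-b2 in WT replicate 1, and 2.58% (1.89% to 3.50%) in WT replicate 2. In replicates 1 and 2 labelled Taf4a-/- these shares were 0.517% (0.272% to 0.979%) and 0.234% (0.156% to 0.351%), from 9 of 1742 and 23 of 9836 reads. Of the alpha-like globin reads, 16.8% (15.1% to 18.6%) were from Hba-a1 or Hba-a2 in WT replicate 1 and 36.03% (31.9% to 40.4%) in WT replicate 2. In replicates 1 and 2 labelled Taf4a-/- they were 8.71% (6.95% to 10.9%) and 8.02% (7.25% to 8.86%). Both WT libraries thus lay above both libraries labelled Taf4a-/- for either share. The exact two-sided permutation p was 0.333 for each, the smallest that 2 libraries against 2 can give.

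The means of the adult share were 3.91% ± 1.88 (SD, n = 2) in WT and 0.375% ± 0.2 (SD, n = 2) in the Taf4a-/- labelled libraries for beta-like reads, and 26.4% ± 13.6 and 8.36% ± 0.486 (SD, n = 2 each) for alpha-like reads. These shares pool the members of each adult pair, so reads that fit either copy do not move between the classes compared. If such reads were left out of the counts, the adult shares are too low: scaled to the unique windows they would be 43.1% and 68.4% of alpha-like reads in WT against 25.9% and 25.5% under the Taf4a-/- label. For beta-like reads they would be 10.95% and 5.72% in WT against 1.14% and 0.504% under the Taf4a-/- label, so the genotypes do not overlap on this scale either. The intervals cover counting error only, because the protocol gives no molecular tags. WT replicate 1 had the larger adult share of beta-like reads and WT replicate 2 that of alpha-like reads. The 2 shares thus did not rank the WT libraries alike. Within the embryonic beta-like reads, the share of Hbb-y was 55.6% (54.04% to 57.2%) and 57.6% (55.02% to 60.1%) in WT, and 45.4% (43.02% to 47.7%) and 51.4% (50.4% to 52.3%) under the Taf4a-/- label. The libraries labelled Taf4a-/- lay below the WT libraries here too, with an exact two-sided permutation p of 0.333, but they differed from each other by more than their counting intervals.

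**Figure D3:**
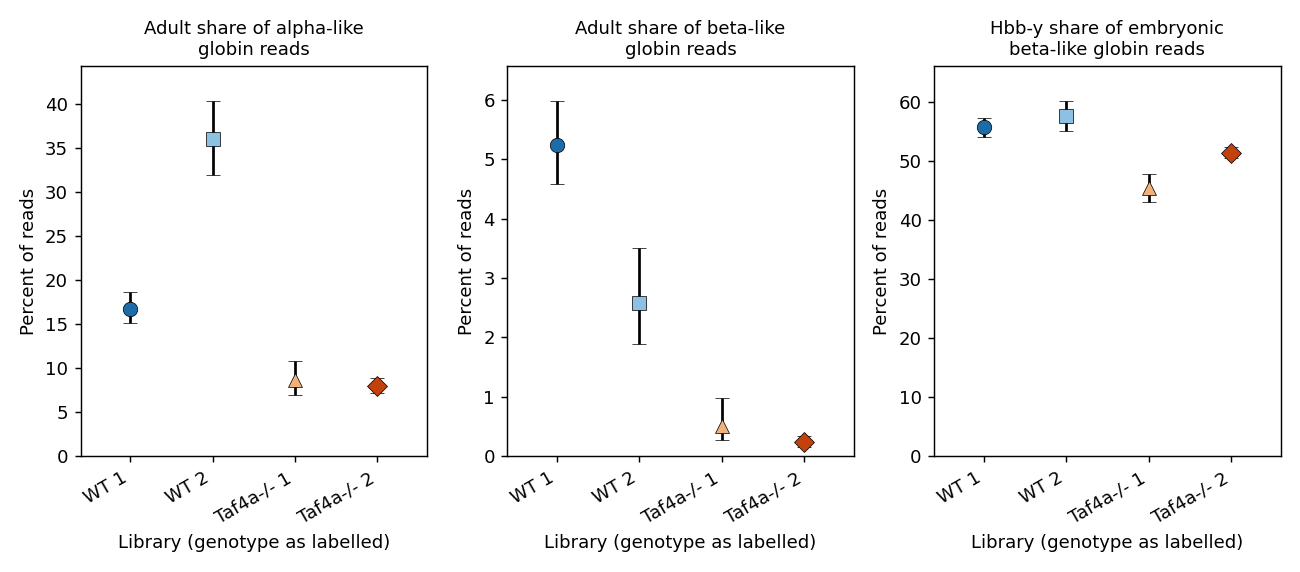
Percent of reads in each library from adult genes among the alpha-like globins (left), from adult genes among the beta-like globins (middle) and from Hbb-y among the embryonic beta-like globins (right); points are single libraries and bars are 95% Wilson intervals for counting error. In all 3 panels both WT libraries lie above both libraries labelled Taf4a-/-.

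Set against the embryonic globins, all 3 other red cell genes were higher in both WT libraries than in both libraries labelled Taf4a-/-. For Slc4a1 the margin was small in 1 case. By level, all 3 genes overlapped between the genotypes. The embryonic globin reads used as the divisor were 5187 and 1791 in WT against 2467 and 13885 under the Taf4a-/- label. No share over all genes is given here for such ratios. By level, 36.6% of all genes tested lay lower in both libraries labelled Taf4a-/- than in both WT libraries. Per 1000 embryonic globin reads there were 38.0 and 37.4 reads of Alas2 in WT against 31.6 and 22.2 under the Taf4a-/- label. Slc4a1 had 43.96 in WT replicate 1, and 10.6, 10.1 and 5.76 in the other 3 libraries, so that WT replicate 1 stood apart, and the values of WT replicate 2 and Taf4a-/- labelled replicate 1 came from 19 and 25 reads. Epb4.2 had 7.33 and 5.58 in WT against 2.03 and 2.74 under the Taf4a-/- label, from 5 to 38 reads in each library. The alpha-like share of all globin reads was 30.5% (29.3% to 31.7%) and 24.6% (22.8% to 26.5%) in WT. Under the Taf4a-/- label it was 31.6% and 31.0%, so the genotypes did not overlap here either. The exact two-sided permutation p was 0.333, and the counting interval of WT replicate 1 covered both values labelled Taf4a-/-.

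To ask whether loss of Taf4 went with a change of these genes, the Taf4a-/- labelled libraries were compared with WT across the 16926 genes whose mean was 10 normalized counts or more, by limma on log2(normalized count + 1) with Benjamini-Hochberg adjustment. All 10 genes passed the filter. Hbb-b2 was lower, falling from 53.0 ± 36.7 normalized counts in WT to 4.72 ± 1.14 in the Taf4a-/- labelled libraries (SD, n = 2 each). Its log2 fold change was -3.06 (SE 0.62, adjusted p = 0.0173). This 1 gene of 10 called lower stands beside 17.3% of all genes tested, and 0 of 10 were called higher, beside 11.3%. At an unadjusted p-value under 0.05 the count was also 1 of 10. The SE from limma draws in part on the spread of other genes, with 4.17 prior degrees of freedom. The call of Hbb-b2 thus does not rest on its own spread alone. Hbb-b2 passed the filter through its WT libraries, since its mean in the Taf4a-/- labelled libraries was under 10. With the reads of Hbb-b1 and Hbb-b2 added up, which does not depend on how reads were split between the copies, the values were 181 and 40.5 in WT against 8.81 and 25.4 under the Taf4a-/- label. The log2 fold change of the sum was -2.43 (SE 0.80) and missed the threshold, with an adjusted p of 0.0673 from limma.

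The other 9 genes did not pass the threshold. The log2 fold changes were 1.48 (SE 0.94, adjusted p = 0.276 from limma) for Hba-x, 1.18 (SE 0.80, adjusted p = 0.3) for Hbb-bh1 and 0.71 (SE 0.87, adjusted p = 0.571) for Hbb-y. They were -0.40 for both Hba-a1 (SE 0.73, adjusted p = 0.709) and Hba-a2 (SE 0.90, adjusted p = 0.762), and -1.80 (SE 1.04, adjusted p = 0.234) for Hbb-b1. Alas2 had 0.55 (SE 0.75), Slc4a1 -0.44 (SE 1.11) and Epb4.2 -0.31 (SE 1.02), with adjusted p-values of 0.605, 0.791 and 0.84 from limma. The median of the 10 genes was -0.35, beside -0.01 for all genes tested. On this scale the change of genes with few reads is understated.

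The calls depended on which library labelled Taf4a-/- was used. Without replicate 1, the 3 embryonic globins and Alas2 were higher, with log2 fold changes of 2.80 for Hba-x (adjusted p = 0.00579), 2.44 for Hbb-bh1 (adjusted p = 0.0013), 2.13 for Hbb-y (adjusted p = 0.00195) and 1.63 for Alas2 (adjusted p = 0.0483, all from limma). In that fit 4 of the 10 genes were higher, beside 3.69% of all genes. Without replicate 2, none of these was higher, Hbb-y was at -0.72 and Hbb-bh1 at -0.07, and Hba-a1 was lower at -1.60 (adjusted p = 0.0234 from limma), so that 2 of the 10 genes were lower, beside 11.3% of all genes. These fits have 1 library labelled Taf4a-/-, which is assumed to vary as the WT libraries do. With any 1 library left out, Hbb-b2 had log2 fold changes from -3.82 to -2.31 and adjusted p-values from 0.0129 to 0.0431. Its sum with Hbb-b1, added up after the data were seen, passed in 1 of these 4 fits, without Taf4a-/- labelled replicate 2, with log2 fold changes from -3.50 to -1.37 and adjusted p-values from 0.0187 to 0.239 from limma.

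**Figure D4:**
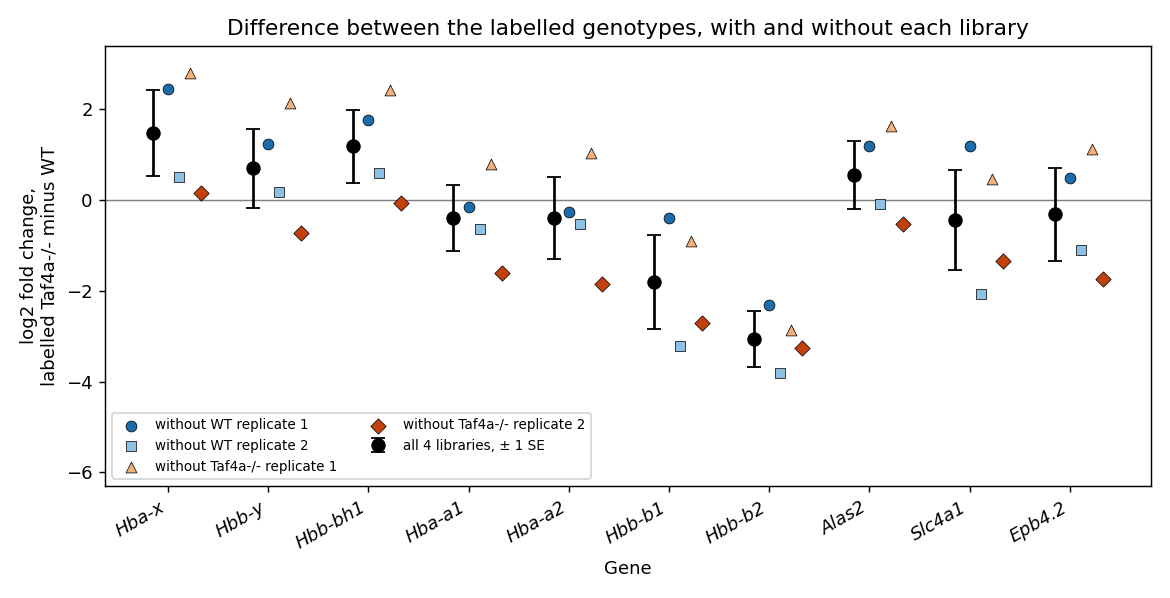
Log2 fold change of each of the 10 genes, libraries labelled Taf4a-/- minus WT, from all 4 libraries (black, bars are 1 SE) and with each library left out in turn (coloured). Hbb-b2 stays below -2 in every fit, and the embryonic globins change from near or below 0 without replicate 2 labelled Taf4a-/- to above 2 without replicate 1.

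Other genes of red cells came in 5 lists with 80 tested genes, of which 18 were lower and 4 higher, beside 17.3% and 11.3% of all genes tested, and the median log2 fold change was -0.22. Without Mb, Cygb and Ngb, which are not red cell genes, 16 of 77 were lower and 4 higher. The lists were not limited to genes found only in red cells, so these counts do not follow red cells alone. Among 3 other globins tested, the oxygen-storing Mb of muscle and the widely expressed Cygb were lower, at -4.28 (SE 0.72) and -1.63 (SE 0.23). Of 21 genes of heme synthesis and iron handling, 5 were lower, among them Blvra (-1.19) and Blvrb (-0.94), which reduce biliverdin, and the ferritin heavy chain gene Fth1 (-0.77). In this list 1 gene was higher, Uros (1.29), which closes the ring of the heme precursor, and the median was -0.0008. The ferritin light chain gene Ftl1 had 0.23 and did not pass the threshold.

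Of 19 tested genes of the red cell membrane and its skeleton, 6 were lower and 1 (Rhd) higher, and their median was -0.32. The largest falls were in the potassium channel gene Kcnn4 (-2.38), the actin-capping gene Tmod1 (-2.24) and the urea transporter gene Slc14a1 (-2.19). The glucose transporter gene Slc2a1 and the protein 4.1 gene Epb4.1 were the most expressed and had 0.01 and 0.19, not past the threshold. Of 15 tested genes for red cell enzymes and maturation, 3 were lower and 0 higher (median -0.22). These were the exonuclease gene Isg20 (-2.84), the pyruvate kinase gene Pklr (-2.46) and the glutathione transferase gene Mgst3 (-1.03). The antioxidant genes Prdx2 (-0.08) and Cat (0.16) did not pass.

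Of 22 erythroid transcription factor genes, 2 were lower, Ikzf1 (-1.79) and Lmo2 (-0.88), and 2 were higher, Myb (2.16) and Ldb1 (0.61), and the median was -0.18. Bach1, a heme-responsive repressor, had -0.16 and did not pass. The order seen for the embryonic globins, with Taf4a-/- labelled replicate 2 first and WT replicate 1 next, was that of 6 of these 22 genes, beside 3.83% of all genes tested. At least 2-fold higher in replicate 2 labelled Taf4a-/- than in replicate 1 were 5 of the 22, beside 3.44%, namely Gata1, Tal1, Gfi1b, Nfe2 and E2f2, which are named after their values were seen, and 3 of these 5 had that order. Tal1, which is needed to form blood, had 278 and 155 normalized counts in WT against 168 and 539.7 under the Taf4a-/- label. Over the 4 libraries, Tal1 was also among the 8 genes whose profile lay nearest to the median profile of the 10 genes, at a distance of 0.76 on the centred log2 scale. Nearest of all was Grap2, an adaptor of blood cells, at 0.52 (97.3 and 44.7 in WT, 21.5 and 128 in the Taf4a-/- labelled libraries). The others were Tlr12, Gm3696, Gm17138, 9030624G23Rik, Sv2c and Ptgfr, with distances from 0.63 to 0.80 and means from 10.5 to 18.4 normalized counts. The choice depends on the scale, since with a pseudocount of 10 or a mean of at least 50, where Tal1 and Grap2 stay among the 8, endothelial genes such as Tie1 and Dll4 enter. Likeness over 4 libraries is a description. None of the 8 genes passed the threshold between the genotypes, which follows from their choice, as the median profile differed more within genotypes than between them.

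Markers of other cell types were set beside these values. Of 12 endothelial markers, 0 were called, with a median of -0.27. Their summed level was 15591 to 17405 normalized counts in WT and 12318 to 14863 in the Taf4a-/- labelled libraries, 6 of them were at least 2-fold higher in replicate 2 labelled Taf4a-/- than in replicate 1, and 4 were at least 2-fold higher in WT replicate 1 than in replicate 2. The most expressed, the receptor genes Flt1 and Kdr, had log2 fold changes of -0.36 and -0.33. Of 11 tested megakaryocyte markers, 5 were lower, led by Pf4 (-4.48), Ppbp (-2.96) and Clec1b (-2.11), and 5 were at least 2-fold higher in replicate 2 labelled Taf4a-/- than in replicate 1. The megakaryocyte sums were 1457 to 2026 in WT and 455 to 732 in the Taf4a-/- labelled libraries, where 3 markers were at 0 in replicate 1. The part of these cells in the differences between libraries of the same genotype was not tested.

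Markers of macrophages and visceral endoderm lay lower in both libraries labelled Taf4a-/- than in both WT libraries, as the adult globin shares did. So did 36.6% of all genes tested. Within WT, the macrophage sums ranked the libraries like the alpha-like adult share and unlike the beta-like adult share. The visceral endoderm sums ranked them like the beta-like adult share and unlike the alpha-like adult share. All 10 macrophage markers were lower in the Taf4a-/- labelled libraries, at sums of 262 and 400.4 normalized counts against 12890 and 16426, with C1qa at 0 in both. All 10 visceral endoderm markers were lower as well, at sums of 1719 and 1060 against 95507 and 80576, with Alb at 0 in both. The blood progenitor list also holds leukocyte genes, and Csf1r is in the macrophage list too. Of its 6 tested genes 5 were lower, among them Ptprc (-6.69), Itgam (-6.25) and Csf1r (-6.14), while Kit, the stem cell factor receptor of progenitors, had -0.40 and did not pass. Of 10 fibroblast markers 8 were lower. Of 8 pluripotency markers 7 were higher, at sums of 13590 and 15288 against 4169 and 2494. Their part in the adult share and in the level of Hbb-b2 was not tested.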

How the data were processed

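Messenger RNA of 4 libraries was prepared with a kit that does not mark strand. Per the labels, reads were processed with CASAVA 1.8, TopHat 1.3.3 and HTSeq 0.5.3p1 on mm9, and the authors normalized the counts with DESeq 2, so the deposited values are normalized counts with decimal commas. How reads matching several genes were counted is not given in the sources used here. Dividing by the value of 1 read gave whole numbers for 100% of values (tolerance 0.1). Levels per kilobase use the joined exons of the NCBIM37 annotation. Genes with a mean of at least 10 entered limma 3.58.1 (R 4.3.3) as log2(value + 1), with lmFit and a trended eBayes, and calls were made below an adjusted p of 0.05 (Benjamini-Hochberg). The 10 genes and the other lists were chosen with earlier results of these data known. Of the listed symbols, Hbb-bh3, Tfr2, Flvcr1, Icam4 and Ahsp were not found and are not analysed here. From each other list the 3 called genes with the largest change and the 2 most expressed could be named, and the 8 nearest profiles. The test was run on simulated data with little spread between libraries, where only genes with a mean of at least 50 were changed. That check does not cover genes as variable as the 10, nor Hbb-b2, whose mean was 28.8. Python 3.11.15 with matplotlib 3.10.9 drew the figures.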

Additional observations from a re-analysis of the deposited data

How the results depend on the processing

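The alternatives were pseudocounts of 0.5 and 10, no filter, a mean of at least 50, equal totals, quantile normalization, no variance trend, a replicate block and each library left out; limma's voom on the recovered reads and the sums of the adult pairs were added after the data were seen, as were globin reads scaled to unique windows, the sums with each library left out and the red cell lists without Mb, Cygb and Ngb, and the edgeR and DESeq2 tests that had been planned were not run. With all 4 libraries, none of these changed a call or a direction among the 10 genes, except that Hbb-b2 was not tested at a mean of at least 50, which leaves 0 genes lower, and that its sum with Hbb-b1 had -2.43 and lost the call. Hbb-b2 ran from -3.18 to -1.96. Quantile normalization moved the median of all genes to 0.11 and called 2644 genes higher and 2451 lower, against 1906 and 2928, and 8 other red cell genes higher instead of 4. Without a variance trend 856 genes were higher, 1741 lower, and 2 other red cell genes higher. Per kilobase of exon the adult share was 19.4% (WT replicate 1) and 9.47% (Taf4a-/- labelled replicate 2) for alpha-like globins, and 4.30% in WT replicate 1 for beta-like globins; the order of genotypes was kept. Scaled to unique windows it was 43.1% and 68.4% in WT against 25.9% and 25.5% under the Taf4a-/- label for alpha-like globins, and 10.95% and 5.72% against 1.14% and 0.504% for beta-like globins. Of the 8 nearest profiles, 3 were shared with pseudocount 10, where the endothelial genes Tie1, Dll4, Cdh5 and Pcdh12 came in, and 2 at the stricter filter, where Tie1, Dll4, Cldn5 and Gja4 did.

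With each library left out in turn, from 0 to 4 of the 10 genes were higher and from 1 to 2 lower, 624 to 2476 genes were higher and 1222 to 3038 lower in the whole table, and 2 to 10 other red cell genes were higher and 7 to 16 lower. The log2 fold changes ran from -0.72 to 2.13 for Hbb-y, -0.071 to 2.44 for Hbb-bh1, -1.60 to 0.81 for Hba-a1, -1.85 to 1.05 for Hba-a2, -0.52 to 1.63 for Alas2, -2.07 to 1.20 for Slc4a1 and -1.75 to 1.12 for Epb4.2, while Hba-x, Hbb-b1 and Hbb-b2 kept their direction. The sum of Hba-a1 and Hba-a2 ran from -1.65 to 0.85. Fewer samples are tested in these fits, and the rest of the cause was not tested.

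With the replicate number as a block, 1 of the 10 genes was lower and 0 higher, 20 other red cell genes were lower, and 1536 genes were higher and 2657 lower in the whole table. The labels do not say whether the numbers pair the samples. The differences between replicates 1 and 2 of the genotypes correlated at 0.01 over 16926 genes. This cannot decide the point, since a correlation over all genes does not show what the numbers stand for. With 4 and 5 reads of Hbb-b2 under the Taf4a-/- label, its fold is set by few reads.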

Other observations

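Some genes with expression restricted to red cells, picked here after their values were seen, had the order of the embryonic globins at low levels. Trim10, a gene of red cell maturation, had 13.2 and 2.08 normalized counts in WT against 4.89 and 37.6 under the Taf4a-/- label, each in the order of replicates 1 and 2. Kel, a blood group antigen, had 9.64 and 2.08 in WT against 2.94 and 18.8 under the Taf4a-/- label. Rhag, an ammonium transporter of the red cell membrane, had 13.2 and 2.08 in WT against 2.94 and 14.4 under the Taf4a-/- label.

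The genes beside the alpha globin cluster on chromosome 11 did not share this order. Of 4 tested there, Nprl3 (1.05) was higher and Rhbdf1 (-0.49) was lower on the log2 scale, and 0 of the 4 were at least 2-fold higher in replicate 2 labelled Taf4a-/- than in replicate 1. Snrnp25 had 0.03 and Mpg, whose span lies within that of Nprl3 on the other strand, had 0.64, and neither passed the threshold.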
